A study of Homo sapiens with 18 samples.

Results

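The nuclear receptors for retinoids and the proteins that carry or oxidise vitamin A were followed in breast cancer cells given a CDK4/6 inhibitor. The 10 genes, taken by name out of 60656 gene rows, were the retinoic acid receptors RARA and RARG, the retinoid X receptors RXRA and RXRB, the retinoic acid carrier CRABP2, the retinal reductase DHRS3 and the retinol dehydrogenases RDH10, RDH11, RDH13 and RDH16. CAMA-1 and ZR-75-1 are established oestrogen receptor-positive breast cancer lines, labelled CAMA1 and ZR751, parental and wild-type in genotype, and both were grown in the same serum-containing medium. Each line was treated for 5 days with abemaciclib at 500 nM, palbociclib at 500 nM or the solvent DMSO. Each of the 6 groups had 3 libraries of 3′-end messenger RNA sequencing, a method that reads mainly the end of a transcript. Both drugs block CDK4 and CDK6, the kinases that inactivate the retinoblastoma protein (Rb). Each line is a single model, so what separates the lines and what separates 2 series of cultures cannot be told apart.

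Vitamin A enters cells as retinol, which retinol dehydrogenases oxidise to retinal and retinal dehydrogenases then oxidise to retinoic acid. CRABP2 binds retinoic acid in the cytoplasm and brings it to the retinoic acid receptors, which sit on DNA as pairs with a retinoid X receptor and switch bound genes from repressed to active when they hold the ligand. DHRS3 works against the dehydrogenases by reducing retinal back to retinol, and CYP26 enzymes destroy retinoic acid. In breast epithelial cells retinoic acid is known for slowing growth, and RARA is known as an oestrogen-responsive gene.

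Library totals ran from 2308442 to 4146549 counts, so that 3 counts stood for 0.723 to 1.30 CPM, the count scaled to the library total. All 9 luminal epithelial markers examined were present in every library, with at least 120 counts for ESR1 and at least 161 for CDH1. Of 11 markers of basal cells, fibroblasts, leukocytes and endothelium, all were at 0 to 3 counts except the collagen genes COL1A1, at 26 to 108 counts, and COL3A1, at up to 24 counts. Mitochondrial genes took 14.8% to 16.6% of the counts in the CAMA-1 DMSO libraries, 23.4% to 26.1% with abemaciclib and 22.9% to 24.9% with palbociclib. In ZR-75-1 the range over all 9 libraries was 17.3% to 22.6%. A fit without mitochondrial genes gave the same calls for the 10 genes in every comparison with DMSO.

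The genes were compared with DMSO by an edgeR quasi-likelihood test run on all genes of a line, and called changed at an adjusted p under 0.05. In CAMA-1, 9 of the 10 genes had enough counts to be tested. Abemaciclib raised RARA and CRABP2 and lowered RDH16, which is 3 of 9, beside 40.3% of all 11053 tested genes called (20.3% higher and 20.1% lower). Palbociclib raised CRABP2 and lowered RXRA and RDH16, again 3 of 9, beside 37.1% of all genes (18.4% higher and 18.7% lower). In ZR-75-1, 8 genes were tested. Abemaciclib raised RARG, CRABP2, RDH11 and RDH13, which is 4 of 8, beside 36.2% of 11017 genes called (17.9% higher and 18.3% lower). Palbociclib raised CRABP2, RDH11 and RDH13, which is 3 of 8, beside 27.9% of all genes (14.5% higher and 13.4% lower). CRABP2 in ZR-75-1 had enough counts to be tested only through the drug libraries, and RDH16 in CAMA-1 only through the DMSO libraries. Their place among the tested genes is thus not independent of their direction. In CAMA-1 the shares called lay near those of all genes. In ZR-75-1 every called member was higher and none lower, a larger share higher than among all genes. With so few genes the shares are no result about the group, which was not tested as a set. The median log2 difference of the tested members was 0.21 with abemaciclib and 0.20 with palbociclib in CAMA-1, where the median over all genes was 0.01 and 0.0011. It was 0.40 and 0.31 in ZR-75-1, where all genes gave −0.0037 and −0.0080. DHRS3 was tested in neither line and RDH16 was not tested in ZR-75-1. The counts are relative to the library total, and they do not tell fewer expressing cells from less RNA per cell.

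**Figure D1:**
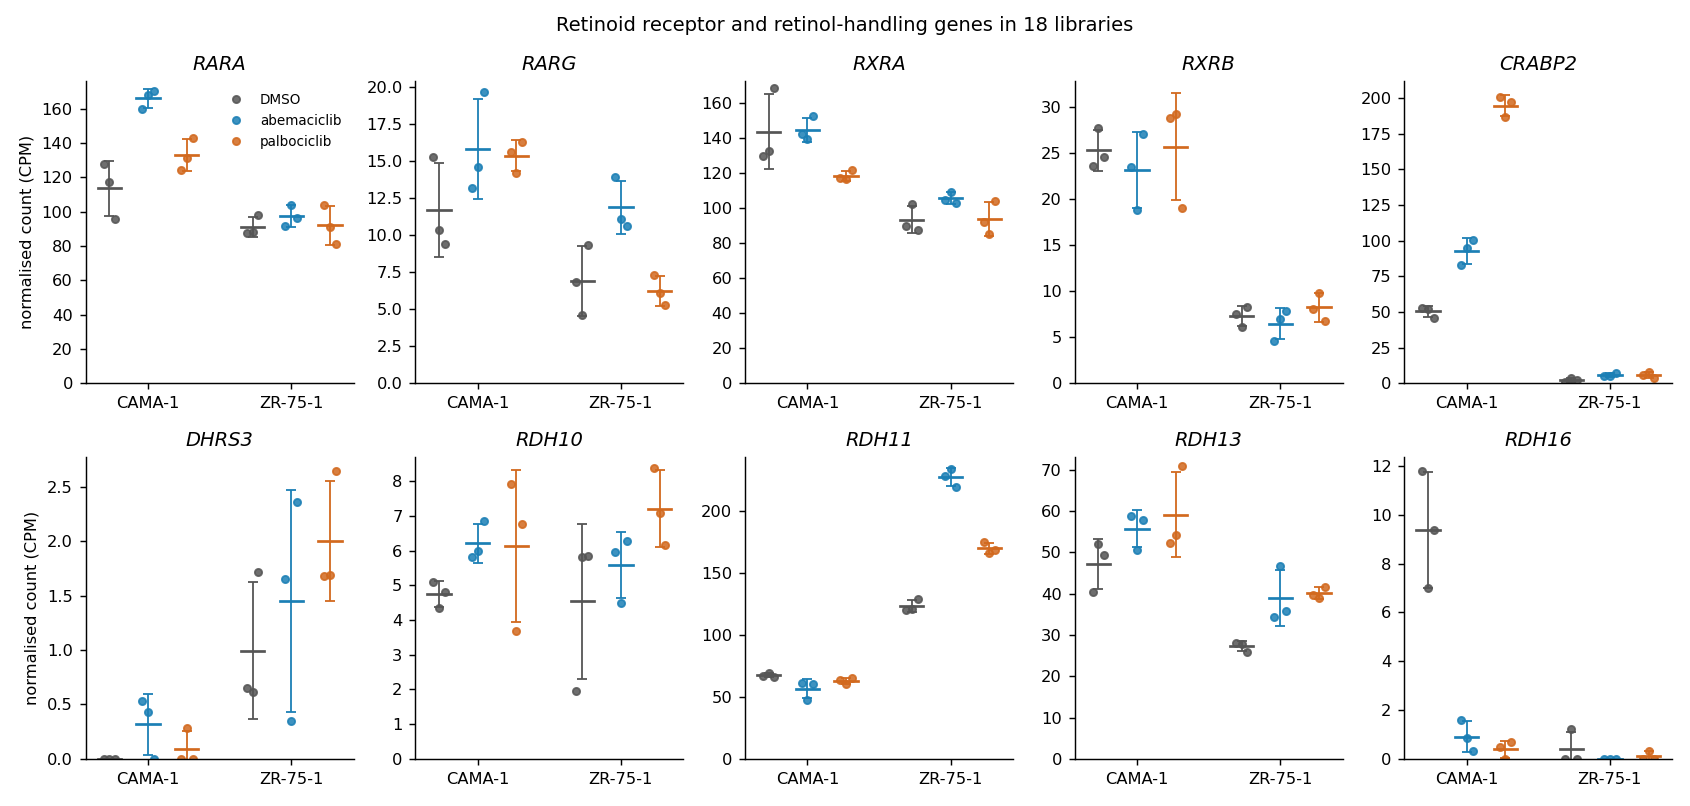
Normalised count (CPM, vertical axis from 0, scale differing by gene) of the 10 genes in CAMA-1 and ZR-75-1 cells given DMSO, abemaciclib or palbociclib. Each point is 1 library, the bar is the mean and the whiskers are the SD (n = 3). CRABP2 in CAMA-1 lies between 46.0 and 52.8 CPM with DMSO, between 82.6 and 100.3 with abemaciclib and between 187 and 201 with palbociclib. RDH11 in ZR-75-1 lies between 120 and 129 CPM with DMSO and between 219 and 233 with abemaciclib.

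RARA (ENSG00000131759.18; chr17:40309180-40357643, plus strand, GRCh38) encodes retinoic acid receptor alpha. Normalised counts, scaled over all 18 libraries, were 128, 117 and 95.9 CPM in the CAMA-1 DMSO libraries, 160, 168 and 170 CPM with abemaciclib and 124, 132 and 143 CPM with palbociclib. The abemaciclib libraries lay above all DMSO libraries, whereas the palbociclib libraries overlapped them. The log2 difference from DMSO was 0.52 with abemaciclib (SE 0.094, adjusted p = 1.42e-05), a 1.44-fold rise. With palbociclib it was 0.20 (95% confidence interval 0.010 to 0.39, adjusted p = 0.0923). That value passed the threshold when DMSO replicate 1 was left out (0.29, adjusted p = 0.0287) and was 0.077 without DMSO replicate 3 (adjusted p = 0.579). In ZR-75-1 the DMSO libraries had 87.7, 88.3 and 98.1 CPM, the abemaciclib libraries 91.9, 104 and 96.3 CPM and the palbociclib libraries 104, 91.2 and 81.3 CPM. The 3 groups overlapped, and the log2 difference was 0.086 with abemaciclib (−0.12 to 0.29, adjusted p = 0.564) and 0.0090 with palbociclib (−0.20 to 0.22, adjusted p = 0.964).

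RARG (ENSG00000172819.17; chr12:53210567-53232980, minus strand), retinoic acid receptor gamma, had far fewer reads, 15 to 65 counts per library. In ZR-75-1 it stood at 6.85, 4.58 and 9.29 CPM with DMSO, 13.9, 11.1 and 10.6 CPM with abemaciclib and 7.27, 6.08 and 5.28 CPM with palbociclib. Every abemaciclib library was above every other library of the line. The log2 difference from DMSO was 0.78 with abemaciclib (SE 0.314, adjusted p = 0.0438) and −0.14 with palbociclib (−0.81 to 0.53, adjusted p = 0.803). The abemaciclib call did not hold when any 1 library other than DMSO replicate 3 was left out (0.55 to 0.86, adjusted p 0.0532 to 0.223), with DESeq2 (0.80, adjusted p = 0.13) or without a filter on low counts (0.80, adjusted p = 0.0622). In CAMA-1 the DMSO libraries had 15.3, 10.3 and 9.39 CPM, the abemaciclib libraries 13.2, 14.5 and 19.6 CPM and the palbociclib libraries 15.6, 14.2 and 16.3 CPM. The groups overlapped, with a log2 difference of 0.42 (−0.060 to 0.90, adjusted p = 0.162) and 0.38 (−0.094 to 0.85, adjusted p = 0.214).

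RXRA (ENSG00000186350.12; chr9:134317098-134440585, plus strand) encodes the retinoid X receptor with which retinoic acid receptors and many other nuclear receptors pair. In CAMA-1 its libraries had 130, 133 and 168 CPM with DMSO, 142, 139 and 153 CPM with abemaciclib and 117, 117 and 122 CPM with palbociclib. All palbociclib libraries lay below all DMSO libraries, and 1 DMSO library, replicate 3, stood well above the other 2. The log2 difference was −0.32 with palbociclib (SE 0.0913, adjusted p = 0.0048) and −0.028 with abemaciclib (−0.21 to 0.16, adjusted p = 0.839). Without DMSO replicate 3 the palbociclib difference was −0.19 and no longer called (adjusted p = 0.114). In ZR-75-1, RXRA had 90.0, 102 and 87.7 CPM with DMSO, 104, 109 and 103 CPM with abemaciclib and 92.0, 85.1 and 104 CPM with palbociclib. Neither log2 difference passed the test there, at 0.17 (−0.035 to 0.37, adjusted p = 0.203) and 0.0019 (−0.20 to 0.20, adjusted p = 0.992).

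RXRB (ENSG00000204231.11; chr6:33193588-33200665, minus strand), the second retinoid X receptor measured, had 44 to 120 counts per library in CAMA-1 and 14 to 29 in ZR-75-1. Its CAMA-1 libraries ran from 23.6 to 27.7 CPM with DMSO, 18.8 to 27.1 CPM with abemaciclib and 19.0 to 29.2 CPM with palbociclib, and its ZR-75-1 libraries from 6.11 to 8.26, 4.63 to 7.86 and 6.75 to 9.80 CPM. The groups overlapped within each line. No difference from DMSO passed the test, with log2 values of −0.14 (−0.50 to 0.23) and 0.011 (−0.34 to 0.36) in CAMA-1 and −0.19 (−0.88 to 0.51) and 0.17 (−0.49 to 0.82) in ZR-75-1 for abemaciclib and palbociclib.

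CRABP2 (ENSG00000143320.9; chr1:156699606-156705816, minus strand) encodes the carrier that hands retinoic acid to its receptors in the nucleus. A long non-coding RNA gene on the opposite strand overlaps its 3′ end and had 2 counts in all. In CAMA-1, CRABP2 had 52.8, 52.4 and 46.0 CPM with DMSO, 82.6, 94.97 and 100.3 CPM with abemaciclib and 201, 187 and 197 CPM with palbociclib. The 3 groups were fully separate and stood in the order DMSO, abemaciclib, palbociclib. The log2 difference from DMSO was 0.85 with abemaciclib (SE 0.105, adjusted p = 8.85e-09), a 1.80-fold rise, and 1.93 with palbociclib (SE 0.098, adjusted p = 6.53e-20), a 3.80-fold rise. In ZR-75-1 the gene was near the floor, with 2, 12 and 7 counts in the DMSO libraries, 15, 15 and 18 counts with abemaciclib and 20, 23 and 12 counts with palbociclib. These were 0.652, 3.67 and 2.41 CPM, 4.96, 5.19 and 7.08 CPM, and 5.59, 7.77 and 3.52 CPM. The abemaciclib libraries did not overlap DMSO, and 1 palbociclib library lay within the DMSO range. The log2 difference was 1.31 with abemaciclib (SE 0.489, adjusted p = 0.0299) and 1.28 with palbociclib (SE 0.482, adjusted p = 0.0392). Without DMSO replicate 1, the library with 2 counts, these were 0.89 (adjusted p = 0.199) and 0.85 (adjusted p = 0.249). The abemaciclib call was also lost without DMSO replicate 3 or abemaciclib replicate 3 (adjusted p = 0.056 and 0.118), the palbociclib call without DMSO replicate 3, palbociclib replicate 1 or palbociclib replicate 2 (adjusted p = 0.0769, 0.0746 and 0.21), and both with DESeq2 (adjusted p = 0.0836 and 0.112).

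Because CRABP2 had the smallest adjusted p of the group against DMSO, the 250 bases before its start in the RefSeq promoter table (GRCh38.p14, chr1:156705785-156706034, minus strand) are shown 5′ to 3′, with capitals for any match to a searched motif.
CRABP2: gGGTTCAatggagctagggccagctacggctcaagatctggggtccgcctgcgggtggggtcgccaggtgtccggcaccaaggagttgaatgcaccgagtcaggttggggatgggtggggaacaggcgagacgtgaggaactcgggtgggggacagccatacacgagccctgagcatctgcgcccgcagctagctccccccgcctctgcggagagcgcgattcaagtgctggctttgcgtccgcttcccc
The search took both strands and covered the hexamer AGGTCA, which retinoid receptors bind as a repeat, its variants with a change at the 5′ end (GGGTCA), with a change inside (AGTTCA) and with both (GGTTCA), and further the GC box GGGCGG, the E2F form TTTNNCGC and the form TTTGAA of the cell cycle homology region. The CRABP2 window held a single match, GGTTCA at bases 249 to 244 before the start, with no second hexamer in the window. The match lies at the far edge of the window, so a partner on its 5′ side could not be seen. Over all 35116 windows of this length in the table, 33.8% held at least 1 of the 4 hexamers, 42.6% a GC box, 5.92% the E2F form and 13.3% the TTTGAA form. Of the 10 genes, 9 were matched in that table, with 16 windows between them, of which 7 windows from 6 genes held a hexamer and none the E2F form. A match describes letters in a window and is not evidence of binding.

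RDH11 (ENSG00000072042.13; chr14:67676800-67695793, minus strand) encodes a membrane-bound retinol dehydrogenase that also reduces retinal. A protein-coding gene on the same strand overlaps its 3′ end and had 1 count in all. In ZR-75-1, RDH11 had 120, 121 and 129 CPM with DMSO, 228, 233 and 219 CPM with abemaciclib and 175, 166 and 168 CPM with palbociclib. The 3 groups were fully separate, with abemaciclib highest, an order that differs from that of CRABP2 in CAMA-1. The log2 difference from DMSO was 0.87 with abemaciclib (SE 0.0825, adjusted p = 3.58e-13), a 1.83-fold rise, and 0.46 with palbociclib (SE 0.0832, adjusted p = 1.65e-05), a 1.37-fold rise. In CAMA-1 the libraries had 66.8, 69.1 and 65.9 CPM with DMSO, 61.5, 47.5 and 60.4 CPM with abemaciclib and 63.6, 60.4 and 65.1 CPM with palbociclib. All drug libraries lay below the DMSO libraries there, but by little, and the log2 difference was −0.27 (−0.50 to −0.039, adjusted p = 0.0558) with abemaciclib and −0.13 (−0.35 to 0.099, adjusted p = 0.406) with palbociclib. The first of these passed the threshold without abemaciclib replicate 1 (−0.33, adjusted p = 0.0485) and was −0.18 without abemaciclib replicate 2 (adjusted p = 0.269). The window before the RefSeq start of RDH11 (chr14:67695765-67696014, minus strand, same build) is printed because RDH11 had the smallest adjusted p against DMSO in ZR-75-1.
RDH11: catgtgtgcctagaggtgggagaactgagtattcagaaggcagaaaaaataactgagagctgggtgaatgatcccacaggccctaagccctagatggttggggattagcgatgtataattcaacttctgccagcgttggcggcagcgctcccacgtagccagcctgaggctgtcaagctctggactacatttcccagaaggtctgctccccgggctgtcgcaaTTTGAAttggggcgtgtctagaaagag
The capitals mark TTTGAA at bases 27 to 22 before the start, and none of the 4 hexamers occurred.

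RDH16 (ENSG00000139547.7; chr12:56951431-56959374, minus strand) encodes a dehydrogenase of retinol and of hydroxysteroids that is best known from liver. It had 37, 21 and 41 counts in the CAMA-1 DMSO libraries, or 11.8, 7.01 and 9.39 CPM. With abemaciclib 6, 2 and 1 counts remained (1.58, 0.856 and 0.311 CPM), and with palbociclib 2, 0 and 2 counts (0.480, 0 and 0.678 CPM). No drug library came near the lowest DMSO library. The log2 difference was −3.28 with abemaciclib (SE 0.52, adjusted p = 1.57e-06) and −4.54 with palbociclib (SE 0.595, adjusted p = 3.59e-08). With so few counts on the drug side the ratio of summed, scaled counts is given with its interval, which covers counting error only: 99 counts with DMSO against 9 with abemaciclib were 9.78-fold apart (95% confidence interval 4.95 to 22.0), and 99 against 4 with palbociclib were 25.1-fold apart (9.49 to 93.9). In ZR-75-1 the gene had 0, 4 and 0 counts with DMSO, 0 in all abemaciclib libraries and 0, 1 and 0 with palbociclib, so a fall of this size was not detectable in that line. The window before its RefSeq start (chr12:56957609-56957858, minus strand) differs in base composition from those of CRABP2 and RDH11, at 47.6% G and C against 65.6% and 52.8%.
RDH16: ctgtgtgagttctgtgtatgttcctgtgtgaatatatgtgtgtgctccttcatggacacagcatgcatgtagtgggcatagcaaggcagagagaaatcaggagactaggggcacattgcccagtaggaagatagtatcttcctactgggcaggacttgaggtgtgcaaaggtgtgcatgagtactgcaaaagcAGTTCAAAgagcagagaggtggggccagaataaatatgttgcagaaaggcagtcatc
Its capitals join AGTTCA, at bases 57 to 52 before the start, and TTTGAA on the opposite strand at bases 55 to 50, which overlap. RDH16 and RDH11 were the 2 matched genes of the group whose windows held the TTTGAA form. In CAMA-1, where both were tested, RDH16 was called lower with both inhibitors, and the RDH11 differences of −0.27 and −0.13 were not called. In ZR-75-1, RDH11 rose and RDH16 was not tested. A link between these letters and the RNA was not tested.

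RDH13 (ENSG00000160439.16; chr19:55039108-55071291, minus strand) encodes a retinol dehydrogenase of mitochondria. In ZR-75-1 it had 28.0, 27.8 and 25.8 CPM with DMSO, 34.4, 46.7 and 35.8 CPM with abemaciclib and 39.7, 38.9 and 41.7 CPM with palbociclib. Every library of either inhibitor exceeded the DMSO range of 25.8 to 28.0 CPM. The log2 difference was 0.51 with abemaciclib (SE 0.156, adjusted p = 0.00779) and 0.55 with palbociclib (SE 0.153, adjusted p = 0.0042), rises of 1.42-fold and 1.47-fold. Without abemaciclib replicate 2, the highest library, the first was 0.36 and not called (adjusted p = 0.112). In CAMA-1, RDH13 had 40.4, 52.1 and 49.2 CPM with DMSO, 58.8, 50.5 and 57.9 CPM with abemaciclib and 52.3, 54.2 and 70.9 CPM with palbociclib. The palbociclib libraries were all above the DMSO libraries, the highest of which was 52.1 CPM, but the log2 differences of 0.28 (0.020 to 0.54, adjusted p = 0.0851) and, with abemaciclib, 0.21 (−0.051 to 0.48, adjusted p = 0.2) were not called. The palbociclib value passed without palbociclib replicate 1 (0.37, adjusted p = 0.0468) and was 0.14 without palbociclib replicate 3 (adjusted p = 0.471). An antisense gene, GP6-AS1, and a long non-coding RNA on the same strand overlap the 3′ end of RDH13, and both had 0 counts in all libraries.

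RDH10 (ENSG00000121039.10; chr8:73294602-73325281, plus strand) encodes the enzyme that makes most retinal from retinol in the embryo. It had 6 to 33 counts per library. In ZR-75-1 it stood at 1.96, 5.80 and 5.85 CPM with DMSO, 5.95, 4.50 and 6.29 CPM with abemaciclib and 8.38, 7.09 and 6.16 CPM with palbociclib. The palbociclib libraries lay above the DMSO libraries, yet the log2 difference of 0.66 had an interval from −0.12 to 1.44 (adjusted p = 0.211). With abemaciclib it was 0.28 (−0.54 to 1.10, adjusted p = 0.638). In CAMA-1 the libraries ran from 4.34 to 5.09 CPM with DMSO, 5.81 to 6.85 CPM with abemaciclib and 3.69 to 7.92 CPM with palbociclib, with log2 differences of 0.35 (−0.39 to 1.09) and 0.34 (−0.38 to 1.06). Neither was called (adjusted p = 0.474 and 0.495), at counts that gave an SE of 0.365 and 0.358. Its start overlaps the ribosomal protein gene RPL7 on the opposite strand, which had 45323 counts in all, though not at the 3′ end of RDH10 where the method reads. That 3′ end is covered by the antisense gene RDH10-AS1, which had 0 counts in all libraries.

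DHRS3 (ENSG00000162496.9; chr1:12567910-12618210, minus strand), the reductase that returns retinal to retinol and a known target of retinoic acid, was close to absent. In CAMA-1 its counts were 0, 0 and 0 with DMSO, 2, 1 and 0 with abemaciclib, while the palbociclib libraries had 0, 1 and 0. In ZR-75-1 they were 2, 2 and 5 with DMSO, 5, 1 and 6 with abemaciclib and 6, 5 and 9 with palbociclib, or 0.652, 0.611 and 1.72 CPM, 1.65, 0.346 and 2.36 CPM, and 1.68, 1.69 and 2.64 CPM. The gene did not pass the filter on low counts in any comparison, and a change was not detectable at this depth.

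**Figure D2:**
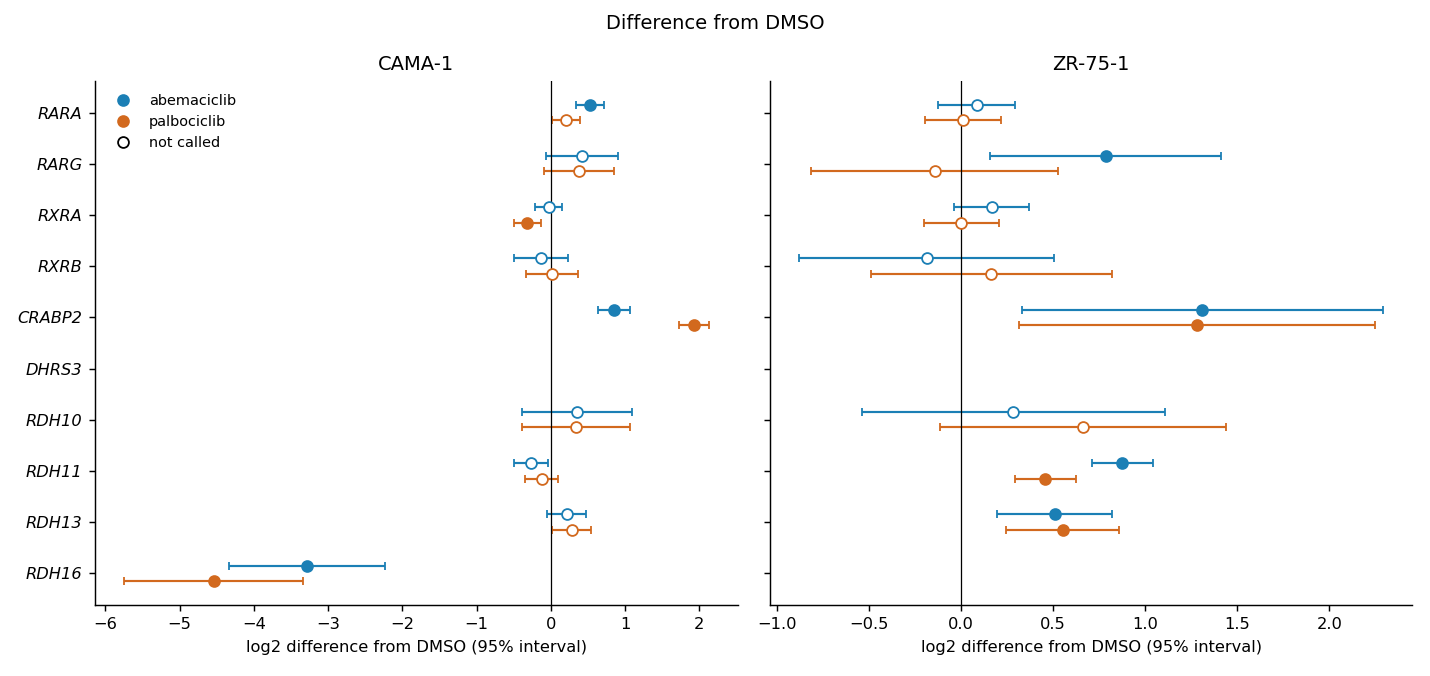
Log2 difference from DMSO (horizontal axis, scale differing by panel) of the 10 genes in each line, with the 95% confidence interval as a bar. Blue is abemaciclib and orange palbociclib, filled points are called at an adjusted p under 0.05 and open points are not, and rows without a point were not tested. RDH16 stands at −3.28 and −4.54 in CAMA-1, CRABP2 rises in CAMA-1, and RDH11 rises by 0.87 and 0.46 in ZR-75-1. CRABP2 is also called higher in ZR-75-1, but near the floor and with calls lost when single libraries were left out.

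The inhibitors were then compared with each other at the same dose and time in the members tested, 9 in CAMA-1 and 8 in ZR-75-1. Palbociclib is a pyridopyrimidinone and abemaciclib an aminopyrimidine that carries a benzimidazole. In CAMA-1 the single call was CRABP2, lower with abemaciclib by a log2 difference of −1.08 (SE 0.0922, −1.26 to −0.89, adjusted p = 3.25e-11), which is a level 2.11-fold higher with palbociclib. That is 1 of 9 genes, beside 2.33% of all genes called between the inhibitors in this line. RARA stood higher with abemaciclib, without overlap, by 0.32 (0.14 to 0.51), just beyond the threshold (adjusted p = 0.0504). It was called without palbociclib replicate 3 (0.38, adjusted p = 0.0477), without a filter, with a stricter filter and without mitochondrial genes (adjusted p = 0.0323, 0.0421 and 0.0436), and was 0.27 without palbociclib replicate 1 (adjusted p = 0.307). RXRA was also higher with abemaciclib in every library, by 0.29 (0.10 to 0.48, adjusted p = 0.0901). The interval of the difference was −0.42 to 0.50 for RARG, −0.51 to 0.21 for RXRB, −0.70 to 0.72 for RDH10, −0.37 to 0.087 for RDH11, −0.32 to 0.19 for RDH13 and −0.52 to 3.05 for RDH16, none of them called.

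In ZR-75-1 the inhibitors differed in RARG and RDH11, 2 of 8 genes, beside 13.2% of all genes. RDH11 was higher with abemaciclib by 0.42 (SE 0.0796, adjusted p = 9.51e-05), or 1.33-fold, with no overlap. RARG was higher with abemaciclib by 0.93 (SE 0.314, adjusted p = 0.0391). That call was lost without any 1 of abemaciclib replicates 1, 2 and 3 or palbociclib replicates 2 and 3 (0.79 to 1.00, adjusted p 0.0565 to 0.182), with DESeq2 (adjusted p = 0.126) and without a filter (adjusted p = 0.053). CRABP2, which separated the inhibitors in CAMA-1, differed here by 0.030, with an interval from −0.82 to 0.88 that is wide because of its low counts. For the others the interval was −0.13 to 0.28 for RARA, −0.035 to 0.37 for RXRA, −1.03 to 0.33 for RXRB, −1.14 to 0.39 for RDH10 and −0.34 to 0.25 for RDH13.

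**Figure D3:**
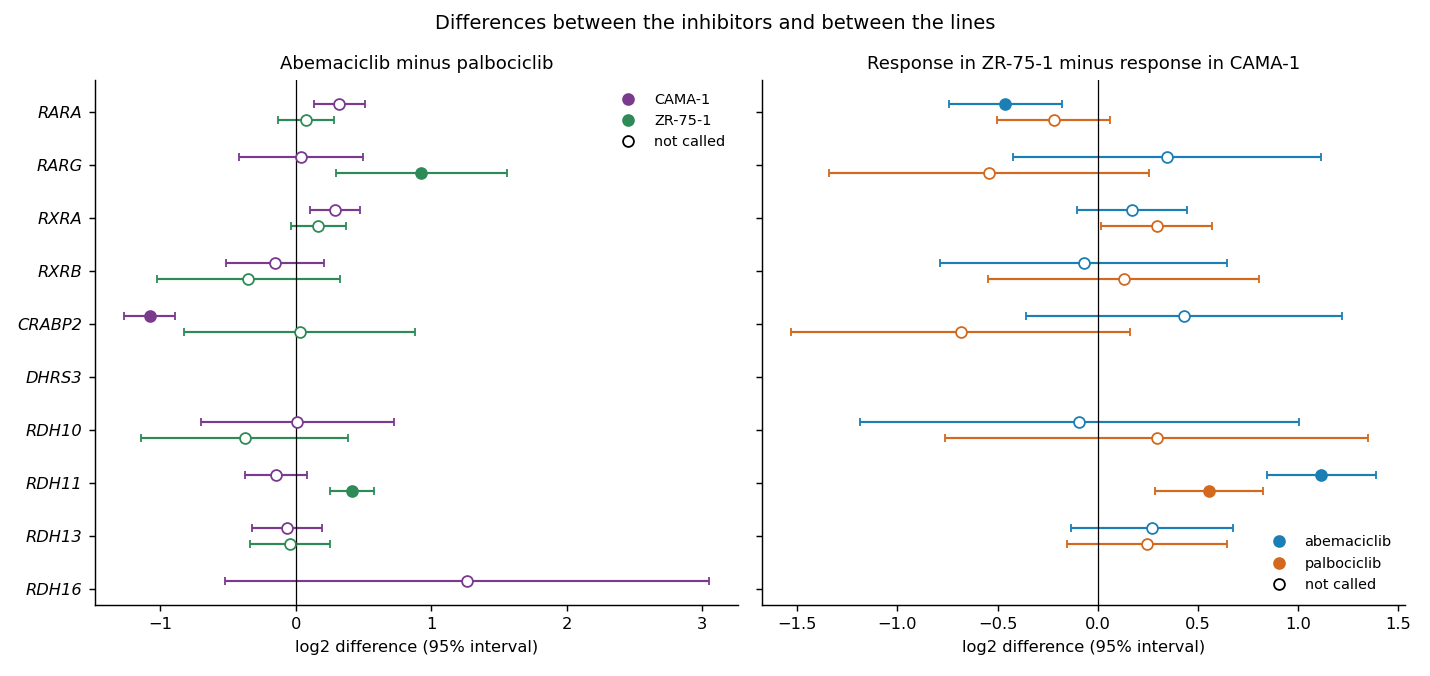
Log2 differences with 95% confidence intervals (horizontal axes, scale differing by panel) for abemaciclib minus palbociclib in each line (left) and for the ZR-75-1 response minus the CAMA-1 response (right). Filled points are called and open points are not, DHRS3 was not tested, and RDH16 is left out on the right because ZR-75-1 had at most 4 counts in a library. CRABP2 stands at −1.08 on the left in CAMA-1 and RDH11 at 1.12 and 0.56 on the right.

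Whether the lines responded differently was tested as an interaction in a joint fit of all 18 libraries by subtracting the CAMA-1 log2 difference from the ZR-75-1 one. With abemaciclib, RDH11 and RARA passed, 2 of 9 genes, beside 18.2% of 11987 genes. The response of RDH11 was higher in ZR-75-1 by 1.12 (SE 0.136, 0.85 to 1.39, adjusted p = 1.94e-09), since it rose in ZR-75-1 and stood slightly lower in CAMA-1. That of RARA was lower in ZR-75-1 by a difference of −0.46 (SE 0.142, −0.74 to −0.18, adjusted p = 0.0151). The RARA difference was not called without CAMA-1 DMSO replicate 3 (−0.29, adjusted p = 0.157), nor without CAMA-1 abemaciclib replicate 2 or 3, ZR-75-1 DMSO replicate 3 or ZR-75-1 abemaciclib replicate 1 (−0.36 to −0.41, adjusted p 0.0518 to 0.103). With palbociclib, RDH11 alone passed, 1 of 9 genes beside 20.3% of all genes, by 0.56 (SE 0.134, 0.29 to 0.82, adjusted p = 0.00133). RXRA differed by 0.29 (0.018 to 0.57, adjusted p = 0.131), which was called without CAMA-1 DMSO replicate 1 or ZR-75-1 DMSO replicate 2 (0.40 in each case, adjusted p = 0.0461 and 0.0435) and was 0.19 without CAMA-1 DMSO replicate 3 (adjusted p = 0.397). Its abemaciclib response differed by 0.17 (−0.10 to 0.45), and the palbociclib response of RARA by −0.22 (−0.50 to 0.064). For CRABP2 the difference between lines was 0.43 with abemaciclib (−0.36 to 1.22) and −0.68 with palbociclib (−1.53 to 0.16), so these data do not tell its responses in the lines apart. RDH13, called in ZR-75-1 and not in CAMA-1, had differences of 0.27 (−0.13 to 0.68) and 0.25 (−0.15 to 0.64), and RARG of 0.35 (−0.42 to 1.11) and −0.54 (−1.34 to 0.26), none of which was called. For RXRB the differences were −0.070 (−0.79 to 0.65) and 0.13 (−0.55 to 0.81), and for RDH10 −0.092 (−1.19 to 1.00) and 0.29 (−0.76 to 1.35), wide intervals that leave room for a difference in either direction. RDH16, with at most 4 counts in a ZR-75-1 library, was not called (adjusted p = 0.694 and 0.507), and DHRS3 was not tested.

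The lines also differed without an inhibitor. With DMSO, 8 of the 9 genes tested differed between ZR-75-1 and CAMA-1, beside 61.3% of all 11987 genes. Of these, 7 were lower in ZR-75-1, where 3571 of all tested genes were called lower and 3777 higher. RDH16, among the 7, had enough counts to be tested only through the CAMA-1 DMSO libraries. Its direction here is thus not independent of the filter. CRABP2 had 50.4 ± 3.82 CPM in CAMA-1 and 2.24 ± 1.51 CPM in ZR-75-1 (SD, n = 3), a log2 difference of −4.44 (SE 0.234, adjusted p = 1.44e-25). RXRB was lower by a log2 difference of −1.79 (SE 0.237, adjusted p = 1.54e-09), RDH13 by −0.79, RARG by −0.75, RXRA by −0.63 and RARA by −0.31. RARA libraries of the lines overlapped, and its difference was −0.46 without CAMA-1 DMSO replicate 3. The RARG call was lost without CAMA-1 DMSO replicate 1 or ZR-75-1 DMSO replicate 2 (−0.57 in each case, adjusted p = 0.117 and 0.107). RDH16 had 99 counts in CAMA-1 against 4 in ZR-75-1, a 21.8-fold ratio of scaled counts (95% confidence interval 8.25 to 81.5, counting error only). All 4 counts came from ZR-75-1 DMSO replicate 2, and the fitted log2 difference of −4.33 moved to −7.96 without it. RDH11 was the gene that stood higher in ZR-75-1, at 123 ± 5.14 against 67.3 ± 1.62 CPM (log2 difference 0.87, SE 0.0954, adjusted p = 4.21e-12). RDH10 gave −0.065 (−0.85 to 0.72, adjusted p = 0.896).

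Around these 10 genes, 67 others of retinoid metabolism and signalling were read out in 8 lists written by hand from general knowledge, and 34 of them had enough counts to be tested in at least 1 line. Of the 33 that did not, 26 never passed 3 counts in a library, and 12 had no count at all. None of the 6 genes of retinoic acid synthesis and breakdown (ALDH1A1, ALDH1A2, ALDH1A3, CYP26A1, CYP26B1 and CYP26C1) was tested in either line, and neither were the remaining receptors RARB and RXRG. RARB, itself a classical retinoic acid target, had at most 9 counts in a library, ALDH1A3 at most 6 and CYP26A1 none in any. Changes in the enzymes that make and destroy retinoic acid were therefore not detectable at this depth.

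In CAMA-1, 28 of the 67 genes were tested, and each inhibitor raised 5 and lowered 4. That is 9 of 28 in each case, beside 40.3% of all genes called with abemaciclib and 37.1% with palbociclib. The medians of the 28 were 0.020 and −0.021. The largest rises with abemaciclib were in BTG2, an antiproliferative gene (log2 difference 2.25, SE 0.518), the orphan receptor NR4A1 (1.27, SE 0.273) and the nuclear receptor corepressor NRIP1 (1.11, SE 0.179). The largest falls were in the thyroid hormone receptors THRA (−0.73, SE 0.103) and THRB (−0.57, SE 0.204), which pair with retinoid X receptors, and in the lipase PNPLA2 (−0.44, SE 0.139). With palbociclib BTG2 (2.15), NR4A1 (1.52) and PLAAT4 (1.39) rose most, and NR1H3 (−1.15), THRA (−0.81) and THRB (−0.67) fell most. PLAAT4 is known as a retinoic acid-induced growth suppressor, and NR1H3 encodes the oxysterol receptor LXR alpha. Of 16 genes known to be induced by retinoic acid, 3 were tested in CAMA-1 (BTG2, NRIP1 and PLAAT4). All 3 were called higher with both inhibitors, beside 20.3% and 18.4% of all genes (medians 1.11 and 1.39, beside 0.01 and 0.0011 for all genes). The others had too few counts in this line, among them CYP26A1, CYP26B1, RARB and STRA6. So few genes are no measure of a retinoic acid response. BTG2 is also known as a p53 target and NRIP1 as an oestrogen-induced gene. With abemaciclib the rise of PLAAT4 (0.95) was not called without DMSO replicate 1 or 2 or abemaciclib replicate 1 or 3 (0.67 to 0.93, adjusted p 0.0873 to 0.187), nor with DESeq2 (adjusted p = 0.109) or the fit of all 18 libraries (adjusted p = 0.0696), and without DMSO replicate 3 it was 1.67 with abemaciclib and 2.11 with palbociclib. The fall of THRB with abemaciclib was not called without DMSO replicate 1 or abemaciclib replicate 1 or 3 (−0.48 to −0.56) or with DESeq2 (adjusted p = 0.083), and that of PNPLA2 not without DMSO replicate 1 (−0.35). The fall of NR1H3 was not called without DMSO replicate 1 or 3 or palbociclib replicate 1 or 3 (−0.82 to −1.17) or with DESeq2 (adjusted p = 0.102), and it was −1.72 without palbociclib replicate 2.

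In ZR-75-1, 31 of the 67 genes were tested. Abemaciclib raised 5 and lowered 8 (median −0.099), which is 13 of 31 beside 36.2% of all genes called, and palbociclib raised 7 and lowered 7 (median −0.091), which is 14 of 31 beside 27.9%. Alternatives were followed only for the 24 pathway genes called in at least 1 comparison with DMSO. A gene called only under an alternative was therefore not counted. Among these 24, DESeq2 called 7 and 10, and leaving out 1 library gave 9 to 11 for abemaciclib and 11 or 12 for palbociclib. With abemaciclib the largest rises were in the orphan receptor NR4A2 (1.19, SE 0.46), the corepressor-bound deacetylase HDAC3 (0.51, SE 0.179) and the retinol saturase RETSAT (0.51, SE 0.109). The largest falls were in the fatty acid and retinoic acid carrier FABP5 (−3.05, SE 0.549), the hormone-sensitive lipase LIPE (−1.91, SE 0.482) and the homeobox gene MEIS2 (−1.77, SE 0.418). FABP5 went from 24, 21 and 21 counts to 1, 3 and 3, and had 14, 15 and 14 with palbociclib. With palbociclib NR4A2 (1.39), NRIP1 (0.78) and HDAC3 (0.74) rose most, and HOXA5 (−1.88), MEIS2 (−1.56) and the corepressor subunit TBL1XR1 (−0.58) fell most. Here 4 of the 16 retinoic acid-induced genes were tested and they did not move together: NRIP1 rose with both inhibitors, HOXA5 and MEIS2 fell with both, and BTG2 rose with palbociclib (0.65) and not with abemaciclib (0.0069). Their medians were −0.63 and −0.45. HOXA5 had 106 counts over all 18 libraries and at most 29 in a library. Genes with few counts, here and in CAMA-1, can pass the filter through the group where they are high. Their place among the tested genes, and so these medians, may not be independent of their direction. Among the 10 coregulators of retinoid receptors, all tested, abemaciclib changed 5 and palbociclib 8, in both directions, and in CAMA-1 each inhibitor changed 1 of 10 (NRIP1). These counts stand beside the shares of all genes called given above, and the difference between the lines in such counts was not tested. Gene by gene, the interaction test called 3 of the 10 with each inhibitor, beside 18.2% and 20.3% of all genes. The response of HDAC3 was higher in ZR-75-1 with both. Lower there were NRIP1 and TBL1XR1 with abemaciclib, and NCOR1 and TBL1XR1 with palbociclib. With DESeq2 the ZR-75-1 counts of coregulators called against DMSO were 2 and 6, and without 1 library they were 3 or 4 and 6 or 7. The coregulators NCOA1 and NCOA3 were not among the 24 genes followed and could not enter these counts. The coactivator EP300 (−0.22) kept its abemaciclib call under 4 of 14 alternatives. The abemaciclib call of its relative CREBBP (−0.24) was lost with DESeq2 (adjusted p = 0.0975), without a filter (adjusted p = 0.0637) and without DMSO replicate 2 or 3 or abemaciclib replicate 2 or 3. With palbociclib the calls of EP300 (−0.25) and the coactivator NCOA2 (−0.50) were each lost in 5 of 14 alternatives, those of the corepressor NCOR1 (−0.25) in 2 and of CREBBP (−0.29) in 1. The abemaciclib call of NR4A2 was lost without DMSO replicate 1 or 3 or abemaciclib replicate 1 or 3 (0.81 to 1.25), and also with DESeq2, the replicate block and the fit of all 18 libraries (adjusted p = 0.0932, 0.0531 and 0.0512). Its palbociclib call was lost without DMSO replicate 1 or 3 or palbociclib replicate 1 (1.27 to 1.33) and with DESeq2 (adjusted p = 0.0501). The abemaciclib call of HDAC3 was lost without DMSO replicate 2 or abemaciclib replicate 1 (0.39 to 0.44) and with DESeq2 (adjusted p = 0.0849). That of HOXA5 was lost without DMSO replicate 1 or 2 or abemaciclib replicate 3 (−0.93 to −1.18) and with DESeq2 (adjusted p = 0.111).

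Another carrier and the retinol saturase RETSAT are described here after their values were seen. CRABP1, the close relative of CRABP2, fell in CAMA-1 where CRABP2 rose. Its libraries had 477, 515 and 465 CPM with DMSO, 369, 381 and 409 CPM with abemaciclib and 324, 363 and 331 CPM with palbociclib, without overlap (log2 difference −0.36 and −0.55, adjusted p = 3.78e-05 and 1.52e-08). In ZR-75-1 CRABP1 had 0 to 5 counts in a library and was not tested. RETSAT rose in CAMA-1 from 70.3, 71.8 and 67.1 CPM to 151, 142 and 131 CPM with abemaciclib and 142, 111 and 137 CPM with palbociclib (0.99 and 0.87, adjusted p = 4.64e-11 and 1.49e-09). In ZR-75-1 abemaciclib raised it by 0.51 (adjusted p = 0.000134) and palbociclib by 0.28 (adjusted p = 0.0453). The palbociclib call was lost without DMSO replicate 1 or 2 or palbociclib replicate 2 or 3 (0.20 to 0.28, adjusted p 0.0909 to 0.252). It was also lost with upper-quartile scaling, DESeq2, no filter and the strict filter (adjusted p = 0.0644, 0.139, 0.066 and 0.0507), which is 8 of 14 alternatives in all. The response of RETSAT was smaller in ZR-75-1 than in CAMA-1 by differences of −0.50 (adjusted p = 0.012) and −0.61 (adjusted p = 0.00158).

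**Figure D4:**
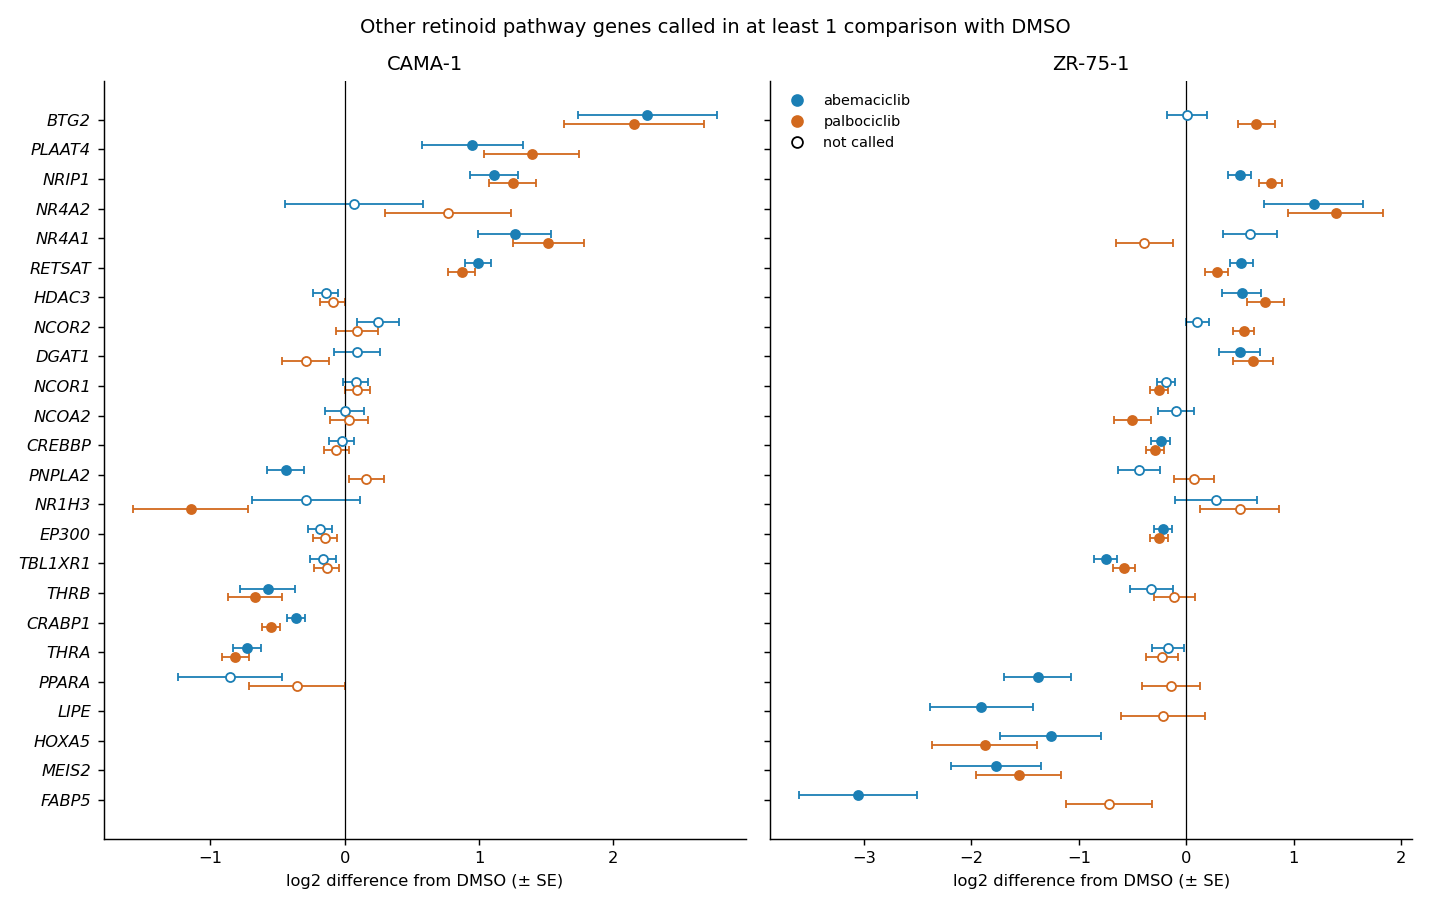
Log2 difference from DMSO (horizontal axis, scale differing by panel; whiskers are the SE) of the 24 other retinoid pathway genes called in at least 1 comparison with DMSO. Blue is abemaciclib and orange palbociclib, filled points are called and open points are not, and a missing point was not tested. BTG2 and NR4A1 lead the rises in CAMA-1, and FABP5, at −3.05 with abemaciclib, falls furthest in ZR-75-1.

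Genes whose pattern was most like a member were sought by Pearson's r of log2 CPM over the 18 libraries, after the mean of each line was subtracted, among 7184 genes with a mean of at least 10 CPM in both lines. Libraries share their treatments and their scaling, so r is a description. RARA came closest to MEGF9 (r = 0.88) and HID1 (0.86), and RXRA to SCARB2 (0.82) and RARS2 (0.76). RDH11 followed RET (0.90) and SCYL2 (0.90). Of the other members, 6 did not reach 10 CPM in both lines and were not ranked.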

How the data were processed

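RNA was measured by 3′-end RNA-seq in 18 libraries of 6 groups. For the deposited counts per gene, the authors trimmed adapters. Reads were aligned with STAR 2.7.5b to hg38, and reads over genes of an earlier GENCODE release were counted with featureCounts 2.0.1. The strand setting, the handling of reads with several alignments and molecular identifiers are not given in the sources used here, so genes with an overlapping partner on the other strand are less certain. The labels and the methods name different strand versions of the kit. The study describes the replicates as independent biological replicates.

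Each line was fitted separately (9 libraries) in edgeR 4.0.16 under R 4.3.3, with filterByExpr, TMM scaling and a quasi-likelihood F test, without a replicate term. P-values were adjusted by Benjamini-Hochberg across every gene tested in a comparison, and calls are at an adjusted p under 0.05. Both kinds of difference between lines come from a joint fit of all 18 libraries. Normalised counts (CPM) are scaled over all 18 libraries, so a fold change differs slightly from the ratio of CPM means. The filter left 11053 genes in CAMA-1, 11017 in ZR-75-1 and 11987 in the joint fit. Ratios of summed counts carry an exact conditional 95% interval, for counting error only, since reads are not shown to be distinct molecules. The fitting code was checked on simulated data.

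The 10 genes were given by name and reported whether called or not, and of the 67 pathway genes the 3 largest rises and falls per comparison with DMSO were named, where called and averaging 10 counts or more in that line; other pathway genes were named after their values were seen. The members, lists and tests were chosen with earlier results of these data known. Like patterns were sought with log2 CPM (prior count 2), and those of RDH13 are not reported here. Gene coordinates are those of GENCODE release 44 on GRCh38, and promoter windows are RefSeq's on GRCh38.p14. RDH16 carries another version number in that release than in the file. Alternatives were RLE and upper-quartile scaling, DESeq2 1.42.0 (the tool of the study), no filter, a filter of at least 10 counts in every library of a group, no mitochondrial genes, a replicate block, a joint fit for the comparisons within a line, and leaving out each library.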

Additional observations from a re-analysis of the deposited data

Results flagged for a closer look

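The 3 results singled out here are responses that differed between the lines by the interaction test of the joint fit. The response of RARA to abemaciclib was lower in ZR-75-1 than in CAMA-1 by a log2 difference of −0.46 (adjusted p = 0.0151), and the 3 abemaciclib libraries stood above the DMSO libraries in CAMA-1 and overlapped them in ZR-75-1. The response of RDH11 was higher in ZR-75-1 by 1.12 with abemaciclib (adjusted p = 1.94e-09) and by 0.56 with palbociclib (adjusted p = 0.00133), with all 6 drug libraries above DMSO in ZR-75-1 and all 6 below DMSO in CAMA-1. The CAMA-1 differences of RDH11 from DMSO were not called (adjusted p = 0.0558 with abemaciclib and 0.406 with palbociclib). With groups of 3 libraries, no single library was tested as an outlier.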

How the results depend on the processing

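Across 78 differences tested for the 10 genes, 27 were called. Of these, 19 kept their call and direction in every alternative, 8 lost the call at least once, 5 others gained one, and none reversed; among values that were not called, 46 alternative values changed sign. RARG and CRABP2 in ZR-75-1 account for 4 of the 8, and at 2 to 42 counts per library depth limits what they can show. Scaling moved the median of all genes by at most 0.049.

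Between the inhibitors in CAMA-1 the number of members called went from 1 to 2 without a filter, with the stricter filter and without mitochondrial genes, and ranged from 1 to 2 when libraries were left out. With abemaciclib in ZR-75-1 it went from 4 to 2 with DESeq2 (2 to 4 when libraries were left out). Between the inhibitors in ZR-75-1 it went from 2 to 1 with DESeq2 and without a filter (1 to 2). The differences in response between lines gave 1 to 2 calls when libraries were left out, for each inhibitor. The causes were not tested.

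Replicate numbers are shared by the groups. Over all tested genes, same-numbered libraries did not visibly deviate together (r from −0.078 to 0.012 over 18 pairs), and differently numbered pairs gave −0.035 to 0.050. Counting error lowers such an r, so it cannot exclude a small effect shared by libraries of the same number. With a replicate block the counts of members called against DMSO stayed at 3 for both inhibitors in CAMA-1, and at 4 (abemaciclib) and 3 (palbociclib) in ZR-75-1.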
